A study of Rattus norvegicus with 14 samples.

Results

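Stc1 and Stc2 encode the mammalian stanniocalcins, and they are 2 of the 18174 genes in the count table of fetal rat testes exposed to dicyclohexyl phthalate (DCHP), a phthalate ester plasticizer. They are the rows with those gene names, and they were chosen by their measured differences from vehicle and their slopes over dose, which earlier results of the same data showed to run in opposite directions. Their differences between dose groups are therefore given as descriptions, with standard errors and no test. Both were among the 12719 genes that passed the filter on low counts.

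Pregnant Harlan Sprague Dawley rats received DCHP in corn oil by oral gavage from gestational day 14 to 18, and fetal testes were dissected on day 18 and pooled by litter. The corn oil vehicle (0 mg/kg/day) and the doses of 100, 300 and 600 mg/kg/day had 3 litters each, and the dose of 900 mg/kg/day had 2. RNA was measured by TempO-Seq, a targeted assay that sequences probe pairs joined on the RNA they match. One library stands for 1 litter, so every value is an average over the cells and fetuses of that litter. Levels are given in CPM, with library totals adjusted by TMM, and differences are log2 fold changes from edgeR.

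Stanniocalcins are secreted glycoprotein hormones, first known from the corpuscles of Stannius of bony fish, where they restrain calcium uptake. In mammals they act mostly near the cells that make them, and both proteins bind and inhibit PAPP-A, a protease that frees insulin-like growth factors by cutting their binding proteins. Transcription of both is known to respond to low oxygen, and STC2 also to the unfolded protein response through ATF4. In the ovary, Stc1 is known from the androgen-producing theca and interstitial cells.

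Libraries held 5558873 to 11272861 counts. Stc1 had 127 to 1023 counts per library and Stc2 54 to 459.002. The biological coefficient of variation was 0.201 for Stc1 and 0.203 for Stc2, against a common value of 0.232. The first principal component carried 36.1% of the variance and placed vehicle replicate 1 (-42.6) and replicate 1 of the lowest dose (-65.1) near the libraries of the highest dose (-38.2 and -22.8). Of the marker lists, all 9 fetal Leydig genes were detected in every library (Insl3, 775 to 5869 CPM). Among 6 Sertoli and 6 germ cell markers, Sox9 (286 to 419 CPM) and Ddx4 (444 to 674 CPM) were abundant, while Fshr and Nanos3 were at 0 in at least 1 library. Kidney and mesonephric markers summed over 5 genes to 6.45 to 9.56 CPM in vehicle against 6.78 to 7.11 CPM at 900 mg/kg/day. Lhx1 (2.06 to 4.39 CPM) and Emx2 (2.41 to 6.57 CPM) of that list were found in every library, and Pax2, Pax8 and Cdh16 were at 0 in at least 1 library.

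Stc1, on chromosome 15 from 44299621 to 44310265 on the plus strand of rn7 (ENSRNOG00000015075), was about 3 times as high at 600 and 900 mg/kg/day as in vehicle. In vehicle litters it measured 19.7, 27.9 and 26.5 CPM. At 100 mg/kg/day it measured 16.6, 29.0 and 25.9 CPM, which spans the vehicle range. At 300 mg/kg/day the litters had 41.8, 51.1 and 53.4 CPM. Every litter of that group lay above every vehicle litter, as did 4.88% of all tested genes. At 600 mg/kg/day Stc1 measured 64.5, 75.6 and 81.0 CPM, again with no litter in the vehicle range (5.06% of tested genes were placed that way). The litters at 900 mg/kg/day were far apart, at 55.7 and 87.8 CPM, but both exceeded all vehicle litters, as did 10.3% of tested genes with 2 litters in the group.

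Group means of Stc1 were 24.7 ± 4.40 CPM in vehicle, 23.8 ± 6.44 at 100, 48.8 ± 6.15 at 300 and 73.7 ± 8.40 at 600 mg/kg/day (SD, n = 3 each), and 71.7 ± 22.8 at 900 mg/kg/day (n = 2). In ascending order the means ran from 100 mg/kg/day through vehicle, 300 and 900 to 600 mg/kg/day. The neighbours 100 mg/kg/day and vehicle overlapped, and so did 900 and 600 mg/kg/day. The litters at 300 mg/kg/day overlapped with no other group: all were above those at 100 mg/kg/day (3.24% of tested genes) and all below those at 600 (3.5%) and 900 mg/kg/day (24.3%).

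The log2 difference of Stc1 from vehicle was -0.05 ± 0.23 (SE) at 100 mg/kg/day, 0.98 ± 0.23 at 300, 1.58 ± 0.23 at 600 and 1.54 ± 0.25 at 900 mg/kg/day. The sign at 100 mg/kg/day was not stable, and became positive without 100 mg/kg/day replicate 1 (0.15) and without either vehicle replicate 2 (0.05) or replicate 3 (0.0048). Between neighbouring doses the difference was 1.03 ± 0.23 from 100 to 300, 0.60 ± 0.22 from 300 to 600 and -0.04 ± 0.25 from 600 to 900 mg/kg/day. The steps thus lay between 100 and 600 mg/kg/day, and the last dose interval held a difference smaller than its standard error.

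Stc2, on chromosome 10 from 16250853 to 16262974 on the plus strand of rn7 (ENSRNOG00000020729), was lower than in vehicle at every dose, including the lowest. In vehicle litters it measured 45.6, 38.2 and 42.2 CPM. At 100 mg/kg/day it measured 27.3, 21.5 and 15.1 CPM. All of these lay below every vehicle litter, a placement shared by 2.99% of tested genes. At 300 mg/kg/day the values were 17.7, 19.6 and 13.1 CPM, and at 600 mg/kg/day they were 15.3, 12.9 and 9.99 CPM. The 2 litters at 900 mg/kg/day had 11.0 and 14.5 CPM. None of the litters at these higher doses reached the vehicle range either, where 4.46%, 5.92% and 8.83% of tested genes had all litters below vehicle at 300, 600 and 900 mg/kg/day.

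Group means of Stc2 were 42.0 ± 3.68 CPM in vehicle, 21.3 ± 6.11 at 100, 16.8 ± 3.39 at 300 and 12.7 ± 2.64 at 600 mg/kg/day (SD, n = 3 each), and 12.7 ± 2.51 at 900 mg/kg/day (n = 2). The mean at 100 mg/kg/day was 50.7% of that in vehicle, and the means at 300, 600 and 900 mg/kg/day were 40.0%, 30.3% and 30.3% of it. Beyond vehicle, each group overlapped with its neighbour in the order of levels: 100 with 300, and 300 with both 600 and 900 mg/kg/day. The vehicle litters were also the least variable for this gene, with a coefficient of variation of 8.76%. It was 28.7% at 100, 20.2% at 300, 20.7% at 600 and 19.7% at 900 mg/kg/day. These values rest on 2 or 3 litters each. Vehicle litters also had more Stc2 counts (369 to 459) than any dosed litter (54 to 209).

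The log2 difference of Stc2 from vehicle was -0.98 ± 0.23 (SE) at 100 mg/kg/day, -1.32 ± 0.23 at 300, -1.72 ± 0.24 at 600 and -1.72 ± 0.27 at 900 mg/kg/day. From 100 to 300 mg/kg/day the difference was -0.33 ± 0.23, from 300 to 600 it was -0.40 ± 0.24, and from 600 to 900 it was -0.0002 ± 0.26. The largest single step of Stc2 was the one from vehicle to the lowest dose, where Stc1 differed by -0.05 ± 0.23. Both genes differed by less than 1 standard error between the highest doses. All comparisons with vehicle use the same 3 vehicle litters.

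**Figure D1:**
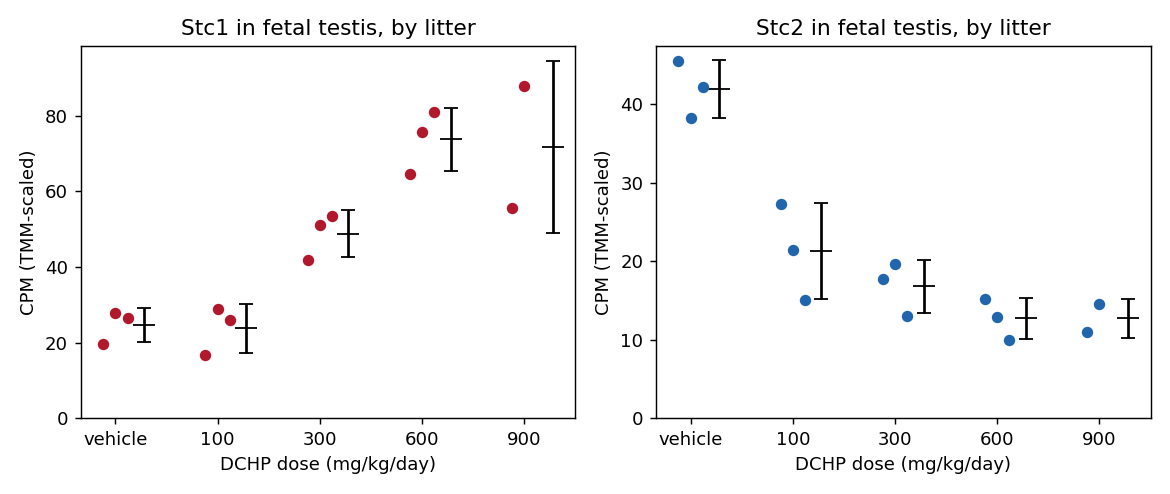
Levels of Stc1 (left) and Stc2 (right) in CPM on linear axes from 0, by DCHP dose; each point is 1 litter, and the black mark and bar are the group mean and SD. Stc1 litters at 100 mg/kg/day (16.6 to 29.0 CPM) span those of vehicle, whereas Stc2 litters at that dose (15.1 to 27.3 CPM) all lie below vehicle.

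**Figure D2:**
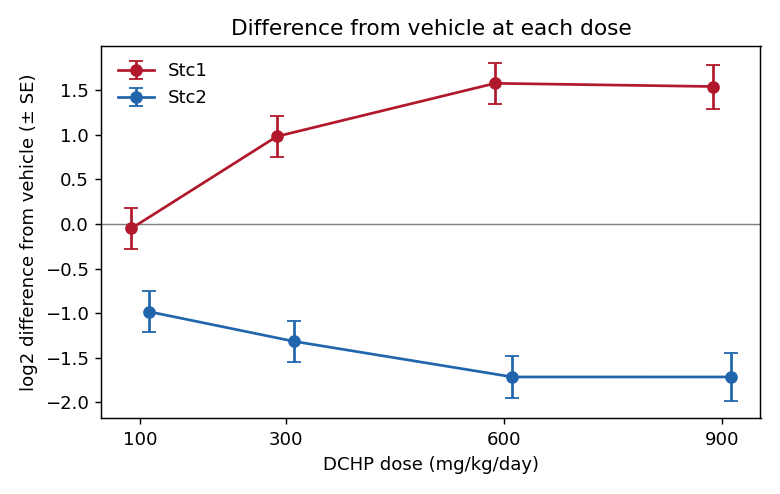
Log2 difference from vehicle with its standard error for Stc1 (red) and Stc2 (blue) at 100, 300, 600 and 900 mg/kg/day. Stc1 goes from -0.05 at 100 to 1.54 at 900 mg/kg/day and Stc2 from -0.98 to -1.72.

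Because both genes are counted in the same library, the number of Stc1 counts per Stc2 count does not depend on how libraries are scaled. Its absolute size rests on how well each probe works, so only its change between litters is read here. In vehicle the ratio was 0.431, 0.729 and 0.629. At 100 mg/kg/day it was 0.608 in replicate 1, inside the vehicle range, and 1.35 and 1.72 in the other litters. At 300 mg/kg/day it was 2.36, 2.60 and 4.09, and at 600 mg/kg/day 4.23, 5.86 and 8.11. Litters at 900 mg/kg/day had 5.08 and 6.05, inside the range at 600 mg/kg/day. The mean log2 ratio was -0.78 ± 0.39 in vehicle, 0.16 ± 0.78 at 100, 1.55 ± 0.42 at 300 and 2.55 ± 0.47 at 600 mg/kg/day (SD, n = 3 each), and 2.47 ± 0.18 at 900 mg/kg/day (n = 2). Every litter at 300, 600 and 900 mg/kg/day had a higher ratio than every litter in vehicle or at 100 mg/kg/day. Stc1 and Stc2 were chosen for running in opposite directions over dose, so a separation of their ratio follows from that choice. The ratio is a description only, and no share over other pairs of genes was computed.

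**Figure D3:**
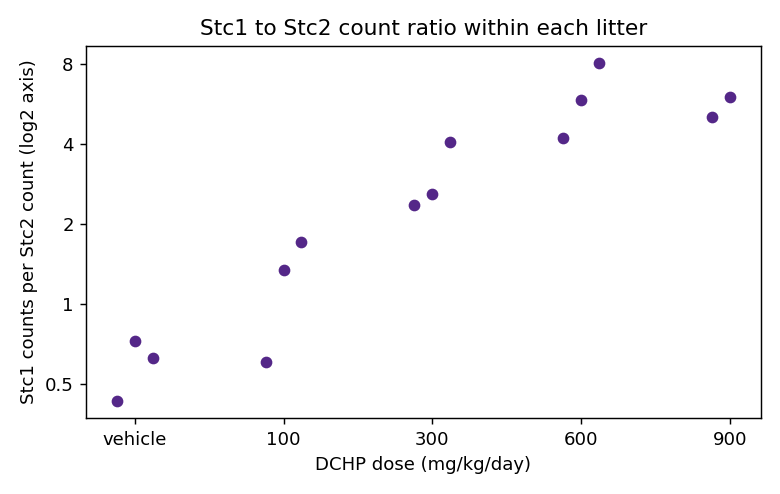
Stc1 counts per Stc2 count in each litter, on a log2 axis, by DCHP dose; each point is 1 litter. The litters run from 0.431 in vehicle to 8.11 at 600 mg/kg/day, and 1 litter at 100 mg/kg/day (0.608) stays among the vehicle litters.

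Whether the stanniocalcins also move against each other among litters of the same dose was asked on deviations from the group means of log2 CPM, which the choice of these genes did not use. Over 14 litters the deviations of Stc1 and Stc2 had a Pearson r of -0.380 and a Spearman rho of -0.367. In the two-sided exact permutation test within dose groups these gave p = 0.343 and p = 0.331 (adjusted p = 0.514 and 0.496 over 3 relations), so no relation was shown at this number of litters. Without the 2 litters whose Stc1 deviations lay farthest from the median, 100 mg/kg/day replicate 1 and 900 mg/kg/day replicate 1, r was -0.431. Group means were taken anew there, so the remaining 900 mg/kg/day litter equals its group mean and adds nothing to that r. In vehicle, 100 and 600 mg/kg/day the litter with the lowest Stc1 had the highest Stc2. At 300 mg/kg/day the lowest Stc1 and the highest Stc2 were in different litters. At 900 mg/kg/day the litter with more Stc1 also had more Stc2.

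**Figure D4:**
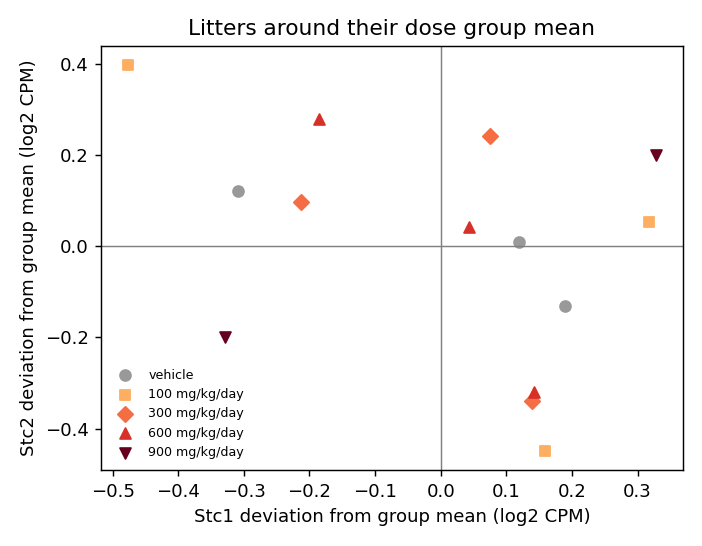
Deviation of each litter from its dose group mean, for Stc1 (horizontal) and Stc2 (vertical) in log2 CPM, with a marker for each dose. The 14 points have a Pearson r of -0.380, which did not pass the exact permutation test.

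Fetal Leydig cells make testosterone and INSL3, and 9 of their marker genes (Star, Cyp11a1, Cyp17a1, Hsd3b1, Insl3, Lhcgr, Nr5a1, Scarb1 and Fdx1) were summed in the same litters. Insl3 (median 2280 CPM) and Fdx1 (1091 CPM) make up most of that sum, and Hsd3b1 and Lhcgr, with medians of 2.41 and 1.82 CPM, add little to it. The summed level was 6371 to 11487 CPM in vehicle, 4093 to 6754 at 100, 3413 to 4433 at 300, 2035 to 4214 at 600 and 1532 to 1882 CPM at 900 mg/kg/day. In pooled testes, fewer cells of a type and less RNA per cell cannot be told apart. Within dose groups, the deviations of Stc2 and of the Leydig sum had r = 0.141 and rho = 0.033 (exact permutation p = 0.675 and 0.932, adjusted p = 0.675 and 0.932), and r = 0.152 without 100 mg/kg/day replicate 3 and 300 mg/kg/day replicate 3 (p = 0.753). Those of Stc1 and the Leydig sum had r = 0.309 and rho = 0.424 (exact permutation p = 0.334 and 0.164, adjusted p = 0.514 and 0.491). The r for Stc1 was 0.0034 without 100 mg/kg/day replicate 1 and 900 mg/kg/day replicate 1. Group means were taken anew there, so the remaining 900 mg/kg/day litter equals its group mean and adds nothing to r. With all litters the r for Stc1 thus rested on 100 mg/kg/day replicate 1 and on the 900 mg/kg/day group. Neither relation was shown, and the part of Leydig cell number in the dose differences of the stanniocalcins was not tested.

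Sertoli markers (6 genes) summed to 994 to 1133 CPM in vehicle and 951 to 1121 at 900 mg/kg/day, germ cell markers (6 genes) to 868 to 1002 and 982 to 994 CPM, and endothelial markers (6 of 7 genes in the table) to 276 to 319 and 320 to 322 CPM. Peritubular markers (5 genes) summed to 277 to 312 CPM in vehicle, 247 to 349 at 100, 326 to 374 at 300 and 338 to 413 at 600 mg/kg/day. The sum was thus also higher at 300 and 600 mg/kg/day, where Stc1 was, and overlapped vehicle at 900 mg/kg/day (312 to 426). Tagln and Acta2, with medians of 169 and 151 CPM, make up most of that sum. Cnn1 had a median of 15.8 CPM, and Myh11 and Des (0.990 and 0.950 CPM) add little. Macrophage markers (5 genes) summed to 16.7 to 19.0 CPM in vehicle and 12.3 to 23.2 at 100 mg/kg/day. They were above the vehicle range in every litter at 300 (19.8 to 24.5) and 600 mg/kg/day (20.6 to 24.2), as Stc1 was, but not at 900 mg/kg/day (16.1 to 18.8). Mrc1, with a median of 12.8 CPM, makes up most of this low sum. The medians of Cd68, Csf1r, C1qa and Adgre1 were 3.68, 1.49, 0.990 and 0.902 CPM. For these sums no share over other sets of genes was computed. The part of the macrophage and peritubular markers in the Stc1 difference was not tested.

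Vehicle replicate 1 and 100 mg/kg/day replicate 1, the libraries placed near the highest dose on the first component, had the lowest Stc1 and the highest Stc2 of their groups. Interstitial markers (6 genes) also set them apart. They summed to 528 CPM in that vehicle litter against 368 and 383 in the others, and to 587 CPM in that litter of the lowest dose against 300.05 and 353, beside 362 to 415 at 300, 331 to 415 at 600 and 517 to 531 CPM at 900 mg/kg/day. Erythroid markers (3 of 5 genes in the table) were likewise high in both, at 230.03 against 66.1 and 66.3 CPM in vehicle and 257 against 46.1 and 75.2 CPM at 100 mg/kg/day, and 600 mg/kg/day replicate 2 had 268 CPM. The part of these cells in the stanniocalcin values was not tested.

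Genes with profiles most like those of the stanniocalcins were sought among 9427 named genes with a mean count of at least 20. The measure was the root mean square difference of log2 CPM, centred on each gene's mean, over the 14 litters. It uses the same dose groups as the choice of Stc1 and Stc2 and is a description only. The 5 genes nearest to Stc1 were Ntn4, a secreted netrin (0.385), Tnni1, the slow skeletal troponin I (0.429), Myom1, a sarcomere M-band protein (0.446), Ldb3, a Z-disc protein (0.461), and Nlrp6, an inflammasome receptor (0.480), against a median of 0.799 over all candidates. Of these, 3 encode sarcomere proteins. Tnni1 measured 50.7 ± 5.73 CPM in vehicle against 87.7 ± 10.7 CPM at 600 mg/kg/day (SD, n = 3 each). Over the same groups Ntn4 went from 3.17 ± 1.28 to 6.11 ± 2.88 CPM, Ldb3 from 1.16 ± 0.346 to 3.95 ± 0.622 CPM, and Myom1 from a range of 2.40 to 2.79 to one of 3.25 to 5.55 CPM. Log2 differences from vehicle at 600 mg/kg/day were 0.92 for Ntn4, 0.79 for Tnni1 and 0.84 for Myom1. Those of Ldb3 and Nlrp6 were 1.74 and 0.65, beside 1.58 for Stc1. At 100 mg/kg/day they were -0.46 for Ntn4, 0.70 for Ldb3 and -0.02 to 0.12 for the others, beside -0.05 for Stc1. Skeletal muscle genes chosen after these names were seen (Acta1, Myh3, Tnnt3, Tnnc2, Mylpf, Ckm and Myog, 7 of 8 in the table) summed to 37.5 to 47.1 CPM in vehicle. They summed to 30.0 to 54.0 CPM at 100, 28.2 to 40.2 at 300 and 36.9 to 53.8 at 900 mg/kg/day. The highest sum at 100 mg/kg/day was in replicate 1, the litter with the lowest Stc1 of that group. At 600 mg/kg/day the litters were at 97.9, 80.5 and 35.9 CPM, so 2 of 3 lay above every vehicle litter. The part of muscle RNA in the Stc1 values was not tested.

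The 5 genes nearest to Stc2 were closer to it, at 0.298 to 0.348 against a median of 0.730. They were Cdkn1c, a cell cycle inhibitor (0.298), Scarb1, the HDL receptor that supplies cholesterol to steroid-making cells (0.313), Acat2, which makes acetoacetyl-CoA for the mevalonate pathway (0.315), Dpt, the matrix protein dermatopontin (0.342), and Idi1, an isomerase of the mevalonate pathway (0.348). At 100 mg/kg/day their log2 differences from vehicle were -0.81 for Cdkn1c, -0.84 for Scarb1, -0.41 for Acat2, -0.79 for Dpt and -0.40 for Idi1, beside -0.98 for Stc2. At 900 mg/kg/day they were -1.85, -2.17, -1.11, -1.38 and -1.74 in the same order, beside -1.72. Cdkn1c went from 15.8 ± 1.48 CPM in vehicle to 8.98 ± 1.40 CPM at 100 mg/kg/day and Scarb1 from 186 ± 18.3 to 104 ± 31.0 CPM (SD, n = 3 each).

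The genes around the stanniocalcins were taken from 4 lists and tested by quasi-likelihood in edgeR, with p adjusted by Benjamini-Hochberg over 12719 genes. Of their 70 tested members 0 passed at an adjusted p under 0.05 at any dose or in the linear trend over dose. Over all genes 0% passed at 100, 0.0472% at 300, 0.22% at 600, 0.252% at 900 mg/kg/day and 0.425% in the trend, so 0 of 70 is near the background. With DESeq2 0 members passed at any dose and 1 passed in the trend, against 0.0157%, 0.212%, 0.464%, 0.715% and 0.936% of all genes. With edgeR p-values before adjustment, 3 members (4.29%) were under 0.05 at 100 mg/kg/day and 5 (7.14%) at each other dose and in the trend, against 3.4%, 3.65%, 4.79%, 4.99% and 5.09% of all genes. Without replicate 1 of both vehicle and the lowest dose, a choice made after seeing the data, 8 of 70 members (11.4%) passed the trend in edgeR, beside 11.8% of all genes, again near the background. For scale, the trend slopes of the stanniocalcins, in log2 units for each 100 mg/kg/day, were 0.21 ± 0.032 for Stc1 and -0.18 ± 0.035 for Stc2, and the slopes of all list members lay between -0.11 and 0.064.

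The PAPP-A and insulin-like growth factor list holds the protease family that stanniocalcins inhibit, the growth factors, their receptors and binding proteins. Of its 16 genes 11 were tested, and Pappa and Igfbp4 were not analysed here. Pappa2, a second such protease, had 0 to 11 counts per library and was left out by the filter. In the trend 0 of 11 passed in edgeR and in DESeq2, and 1 had an unadjusted p under 0.05, namely Igfbp2. The median slope was -0.0075, beside 6.38e-05 over all tested genes. Igfbp2, an insulin-like growth factor binding protein, measured 42.2 ± 10.4 CPM in vehicle against 21.5 ± 3.84 CPM at 900 mg/kg/day (SD, n = 3 and 2), with a slope of -0.084 ± 0.026 (edgeR adjusted p = 0.389). Without 100 mg/kg/day replicate 1 it passed as lower (slope -0.097, edgeR adjusted p = 0.0287), where 0.599% of all genes passed. Without both libraries named above its slope was -0.11 (edgeR adjusted p = 0.00207), and Igf2r, the receptor that clears IGF2, went from 9.91e-05 to a called 0.065 (edgeR adjusted p = 0.0345). Of all genes 11.8% passed in that fit, whose left-out libraries were picked for lying near the highest dose on the first component. Slopes of Irs2 and Irs1, adaptors of the insulin and IGF receptors, were 0.036 ± 0.020 and 0.049 ± 0.031, and that of the receptor Igf1r was 0.025 ± 0.019, none with a call.

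In the ATF4 and unfolded protein response list, 0 of 17 tested genes passed in edgeR in the trend and 1, Xbp1, passed in DESeq2. With edgeR 3 had an unadjusted p under 0.05, all with negative slopes, where 5.09% of all genes were under 0.05. The list was not tested as a set. Slopes were negative for 13 of the 17 members, with a median of -0.021 (6.38e-05 over all tested genes). Xbp1, a transcription factor of the unfolded protein response, measured 8.68 ± 2.64 CPM in vehicle and, at a lower mean, 4.25 ± 0.298 CPM at 900 mg/kg/day (SD, n = 3 and 2). Its slope was -0.11 ± 0.029, with an adjusted p of 0.187 in edgeR and 0.0403 in DESeq2. Ddit4, a stress-induced inhibitor of mTORC1 signalling, had a slope of -0.072 ± 0.022 (edgeR adjusted p = 0.365), and the chaperones Hsp90b1 and Calr had -0.034 ± 0.011 and -0.026 ± 0.013 without a call. Without replicate 1 of both vehicle and the lowest dose, edgeR called Xbp1 (-0.10), Hsp90b1 (-0.036) and Ddit3, a stress-induced transcription factor (-0.053, from -0.024 with all libraries), at adjusted p of 0.0429, 0.0466 and 0.0450. That fit leaves out libraries picked for lying near the highest dose on the first component, and 11.8% of all genes passed in it. Atf4 itself, the transcription factor known to act on Stc2, had a slope of 0.0085 ± 0.051. At 100 mg/kg/day, where Stc2 was at -0.98 ± 0.23, the log2 difference of Atf4 was 0.07 ± 0.51. Its litters were far apart, at 32.1 to 115 CPM in vehicle and 29.1 to 144 CPM at 100 mg/kg/day. The part of ATF4 in the Stc2 differences was not tested.

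In the hypoxia response list 0 of 24 tested genes passed in edgeR or DESeq2 in the trend, and 1 had an unadjusted p under 0.05 in edgeR, the glycolytic enzyme gene Aldoa (-0.030 ± 0.012, edgeR adjusted p = 0.786). The members were split into 13 with positive and 11 with negative slopes, and the median was 0.00071. Hif1a, the oxygen-regulated transcription factor subunit, had a slope of 0.0060 ± 0.029. The collagen prolyl hydroxylase gene P4ha2 (-0.024 ± 0.014), Ndrg1 (-0.040 ± 0.026) and the vasodilator peptide gene Adm (0.044 ± 0.032) had no call over all libraries. Without replicate 1 of both vehicle and the lowest dose, the slope of Ndrg1 was -0.072 and passed (edgeR adjusted p = 0.00979). In that fit Pdk1, an inhibitory kinase of pyruvate dehydrogenase, went from 0.031 to 0.088 and Bnip3l, a mitophagy receptor gene, from 0.028 to 0.075, and both passed (edgeR adjusted p = 0.0463 and 0.0214). There 11.8% of all genes passed the trend, and the libraries left out were picked for lying near the highest dose on the first component.

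In the calcium and phosphate handling list, which covers store-operated calcium entry, calcium channels and pumps, phosphate transporters and the parathyroid hormone and vitamin D systems, 0 of 18 tested genes passed in the trend in edgeR or DESeq2 and 0 had an unadjusted p under 0.05. The median slope was 0.0066. The inositol trisphosphate receptors Itpr1 (0.058 ± 0.032) and Itpr3 (0.064 ± 0.039), the parathyroid hormone receptor Pth1r (0.023 ± 0.013) and the store-operated channel Orai1 (0.017 ± 0.014) had the smallest p of the list. The calcium-sensing receptor Casr had 0 to 5 counts per library and was left out by the filter.

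**Figure D5:**
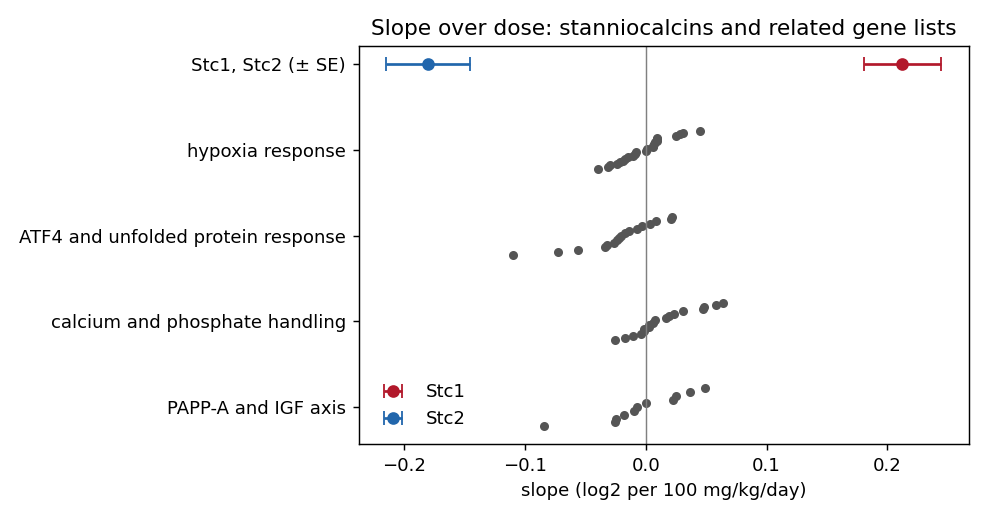
Slope over dose, in log2 units for each 100 mg/kg/day, of each tested gene in 4 lists (grey points, sorted within a list) and of Stc1 (red) and Stc2 (blue) with standard errors. The list genes lie between -0.11 and 0.064, and Stc1 (0.21) and Stc2 (-0.18), which were chosen for their slopes, lie outside that range.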

How the data were processed

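The estimated counts per Ensembl gene were deposited by the authors without scaling. The submitters' processing notes name STAR 2.7.8a, Partek, DESeq2 and the build rn7, with no role for each; the counting tool is not given in the sources used here. A second deposited table applies a factor to 16 genes whose signal the assay attenuates, neither of them Stc1 or Stc2. The authors also deposited log2 CPM values made from it. Counts were rounded, filtered with filterByExpr (12719 of 18174 genes kept), scaled by TMM and fitted over 14 libraries with edgeR 4.0.16 (R 4.3.3), with 9 residual degrees of freedom. DESeq2 1.42.0 was an alternative. Deviations from group means were tested by 2592 exact permutations within dose groups. The edgeR fits were also run on simulated counts with independent genes, the same spread for every gene and changes linear in dose. That simulation holds no shared component like the first of these libraries and no early step like that of Stc2. It therefore does not check the fits under those conditions.

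Stc1, Stc2 and the lists were chosen with earlier results of these data known. Members of a list are named where they passed, otherwise the 4 with the smallest trend p, with Pappa, Pappa2, Igfbp4, Hif1a and Atf4 always, and the 5 genes nearest to each stanniocalcin. Marker lists covered macrophages, adrenal, erythroid and mesonephric cells beside the cell types of the testis. One marker gene is not reported here. The adrenal list (1 of 3 genes in the table) had 0.131 to 1.08 CPM over all libraries. Alternatives were other size factors, no filter, DESeq2, attenuation-adjusted counts, only the groups compared, the authors' log2 CPM and leaving out each library. The alternative that leaves out replicate 1 of both the vehicle and the lowest dose was chosen after seeing the data. Those libraries lay near the highest dose on the first component, so leaving them out favours calls in the trend.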

Additional observations from a re-analysis of the deposited data

How the results depend on the processing

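No paired analysis was made, because each litter received 1 dose and no pairing of litters between doses is given. The replicate numbers used here only tell the litters of a dose apart. Stc1 at 300, 600 and 900 mg/kg/day and Stc2 at every dose kept their direction in all alternatives run. Without 1 library, Stc1 ranged from -0.21 to 0.15 at 100, 0.84 to 1.09 at 300, 1.44 to 1.67 at 600 and 1.18 to 1.84 at 900 mg/kg/day, and its slope from 0.20 to 0.25. Stc2 ranged from -1.20 to -0.78, -1.44 to -1.17, -1.87 to -1.57 and -1.93 to -1.52, and its slope from -0.22 to -0.16. The Stc1 value at 900 mg/kg/day was 1.18 without replicate 2 of that dose. With replicate 1 of both vehicle and the lowest dose left out, Stc1 at 100 mg/kg/day was 0.016 and Stc2 -1.14. Between 600 and 900 mg/kg/day the signs turned: Stc1 was at 0.017 without the filter and 0.041 in the authors' log2 CPM, Stc2 at 0.054 and 0.12, and without 1 library they ranged from -0.40 to 0.27 and -0.21 to 0.20; the cause was not tested.

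The within-group r without 1 library ranged from -0.653 to -0.065 for Stc1 with Stc2, 0.129 to 0.606 for Stc1 with Leydig markers and -0.123 to 0.402 for Stc2 with them. Counts of genes called over all genes moved more. DESeq2 called 2, 27, 59 and 91 genes at the 4 doses and 119 in the trend, against 0, 6, 28, 32 and 54 in edgeR. RLE size factors gave 15 at 600 mg/kg/day, and fits of only the groups compared gave 8 at 600 and 4 at 900 mg/kg/day. Without 1 library the counts ranged from 0 to 0, 0 to 9, 6 to 50, 0 to 50 and 30 to 76. Without the pair of libraries above they were 39 at 300, 66 at 600 and 2102 at 900 mg/kg/day, with 1494 for the trend. That pair was picked for lying near the highest dose on the first component, which favours calls at that dose and in the trend. These counts are therefore not read as a result. In that fit 2 genes of the PAPP-A list, 3 of the ATF4 list and 3 of the hypoxia list passed the trend, in all 11.4% of list members beside 11.8% of all genes. In fits without 1 library the count in the PAPP-A list ranged from 0 to 1 and that in each other list was 0, and DESeq2 called 1 gene of the ATF4 list.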
